A study of Mus musculus with 2 samples.

Results

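The first 3 days of the control culture were described here, as the cells of day 3 against the cells of day 0. The cells came from 1 single-cell library of mouse bone marrow cultured with GM-CSF, the granulocyte-macrophage colony-stimulating factor, in which 5 culture days carried hashtag antibodies and were sequenced as 1 pool. Cells were kept when the deposited hashtag call was a singlet, when at least 500 genes were detected and when mitochondrial transcripts made up under 15% of the UMIs, the unique molecular identifiers that count captured transcripts. The hashtag then gave the day. This left 1646 cells of day 0 and 2089 cells of day 3, together 3735 of the 11607 cells kept in the control library and of the 25221 kept in the whole series. The series compared GM-CSF cultures given heme-albumin with cultures given albumin alone, both from day 3.

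All cultures came from the femurs and tibias of wild type C57BL/6 mice aged 8 to 10 weeks. Magnetic depletion had removed cells carrying CD5, CD11b, CD45R, Gr-1, 7-4 or Ter-119, so that the input was lineage-negative marrow. GM-CSF was present from plating at 20 ng/ml, and on day 2 the wells received further medium holding 40 ng/ml. By its hashtag name day 0 is the marrow at the start. Day 3 is the GM-CSF culture, in medium with serum, before the albumin or 300 µM heme-albumin that was given from day 3. Neither library holds cells cultured without GM-CSF. The part of GM-CSF in the differences therefore cannot be told apart from that of serum, plating or time in culture. Each day was 1 hashtagged culture, and neither the number of mice pooled nor a second control library is given. The study's figure shows cultures begun on different days with a common harvest, whereas the sample protocol names several harvest days, and the day names were used as the hashtags give them.

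GM-CSF signals through a receptor made of a private alpha chain and a beta chain shared with the receptors for IL-3 and IL-5, and the receptor's kinase JAK2 activates the transcription factor STAT5. STAT5 in turn drives genes that restrain the signal, such as Cish and the Socs genes, and genes that favour survival, such as Pim1 and Bcl2l1. In marrow cultures GM-CSF supports the growth of granulocytes, monocytes, macrophages and dendritic cells, while red cell, platelet and lymphoid precursors need other factors. Neutrophil precursors make their granules in a set order, with primary granules holding myeloperoxidase and elastase, secondary granules holding lactoferrin and cathelicidin, and S100a8 and S100a9 filling the cytosol later.

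The promoters of the genes that the comparison turned on are shown first, since factors of the GATA family act in red cell precursors and C/EBP and PU.1 factors act in granulocytes. They were taken from RefSeq (build GRCm38.p6) as the 250 bases before and 50 bases after each gene's start, for the members of the erythroid list and of the secondary granule list with the most extreme difference between the days. Car1 led the erythroid list and had no entry in the table. Capitals mark letters matching a GATA motif (the letters AGATAA, the letters TGATAA, the letters AGATAG or the letters TGATAG) or the C/EBP motif (TTGCNNAA), on either strand, and none of the printed promoters held the PU.1 motif (GAGGAAG). No printed match overlaps another.
Ermap, erythroid membrane protein, chr4:119189946-119190245, minus strand: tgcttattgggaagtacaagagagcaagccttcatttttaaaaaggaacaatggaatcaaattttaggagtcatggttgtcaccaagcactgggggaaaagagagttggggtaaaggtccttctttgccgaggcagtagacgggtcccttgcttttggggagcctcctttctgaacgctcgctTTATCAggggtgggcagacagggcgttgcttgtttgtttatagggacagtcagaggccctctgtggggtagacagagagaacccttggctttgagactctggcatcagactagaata
Fcnb, ficolin B of granules, chr2:28084829-28085128, minus strand: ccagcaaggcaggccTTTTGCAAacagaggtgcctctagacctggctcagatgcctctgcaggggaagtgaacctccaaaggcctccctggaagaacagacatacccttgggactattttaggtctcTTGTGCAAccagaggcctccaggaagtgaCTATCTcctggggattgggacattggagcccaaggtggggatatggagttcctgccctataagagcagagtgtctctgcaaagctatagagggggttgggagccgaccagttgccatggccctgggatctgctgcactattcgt
Ngp, neutrophilic granule protein, chr9:110419558-110419857, plus strand: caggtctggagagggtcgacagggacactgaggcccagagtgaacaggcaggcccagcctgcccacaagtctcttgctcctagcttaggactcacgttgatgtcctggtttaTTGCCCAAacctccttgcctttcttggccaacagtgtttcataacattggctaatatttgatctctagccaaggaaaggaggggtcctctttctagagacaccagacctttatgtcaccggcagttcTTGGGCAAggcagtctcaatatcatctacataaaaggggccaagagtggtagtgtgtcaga

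A GATA motif stood in 11 of the 16 erythroid list promoters in the table (68.8%), in 4 of the 11 secondary granule promoters (36.4%) and in 30.2% of all 27025 promoters. The C/EBP motif stood in 1 of the 16 erythroid promoters (6.25%), in 6 of the 11 granule promoters (54.5%) and in 10.8% of all. The PU.1 motif was found in 3 promoters of each list (18.8% and 27.3%) against 13.5% of all. These are matches of letters in a short window, they describe the lists, and they are not evidence that a factor was bound.

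The day 3 cells had more UMIs each. Day 0 cells had a median of 9920 UMIs and 2800.5 genes and day 3 cells 15770 UMIs and 3508 genes, and the sums were 19049621 and 35641351 UMIs. Transcripts of cytosolic ribosomal proteins took 30.3% of the UMIs on day 0 and 19.4% on day 3. The study's own limit of 30% ribosomal UMIs would have removed 1022 day 0 cells (62.1%) and 11 day 3 cells (0.527%), so it was not applied here. From the doublets seen between hashtags, about 1.88% of day 0 singlets and 2.38% of day 3 singlets would be undetected doublets of cells of the same day, and they were not removed. The control and heme libraries shared 112 barcodes, of which 6 were among the kept cells of these days.

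Levels are given as CPM, a gene's UMIs over all cells of a day with that day's total scaled to 1000000, and a ratio of day 3 to day 0 carries an exact 95% interval. With 1 culture a day there is no test, and the intervals cover counting error only. A gene was called higher or lower when its CPM differed by at least 2-fold and its mean over both days was at least 10 CPM. Of 7554 genes counted, 1068 (14.1%) were higher on day 3 and 973 (12.9%) were lower. The counts of each gene list below are to be read beside these shares. No called gene had an interval that included a ratio of 1. At least 4-fold differences were found for 450 higher and 255 lower genes, and at least 16-fold differences for 98 and 89. The median gene had a log2 ratio of -0.18.

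The balance of the calls depended on the scaling. Higher genes made up 52.3% of the calls with the total count, 70.9% with TMM factors, 71.2% with DESeq2 size factors and 35.7% when ribosomal and mitochondrial genes were left out of the total. The median gene moved with them, to 0.07, 0.08 and -0.41 on the log2 scale. Under every scaling 860 genes were higher and 575 lower, and the 10 genes with the highest and the 10 with the lowest ratio among those with a mean of at least 50 CPM kept their calls.

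**Figure D1:**
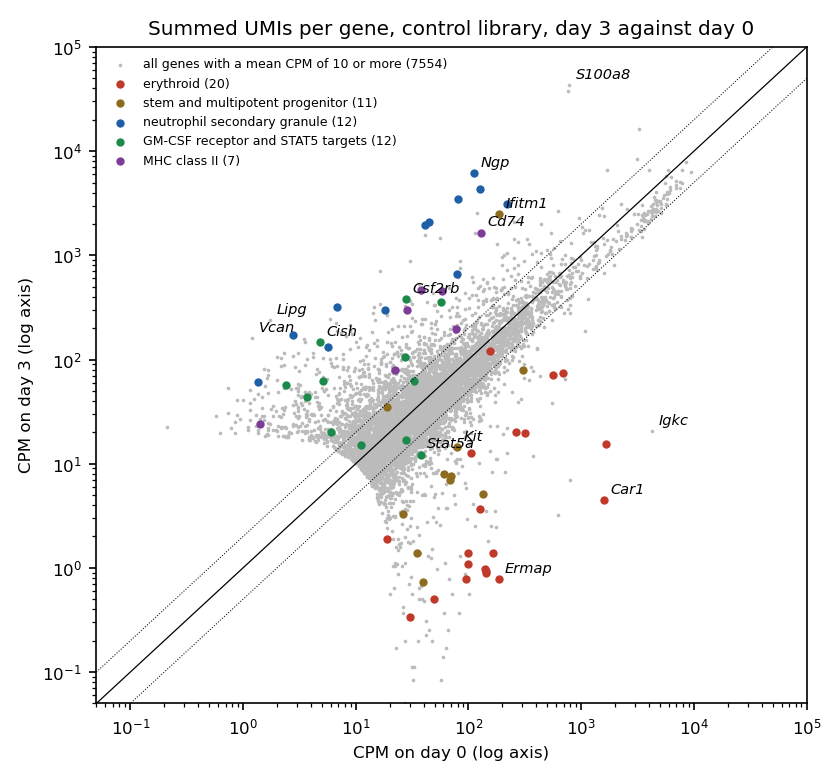
Each point is 1 of the counted genes of the control culture, with its CPM on day 0 on the x axis and on day 3 on the y axis, both on log axes, and lines marking equal levels and 2-fold differences. S100a8 (786 to 42839 CPM) and Ngp (113 to 6196 CPM) lie far above the line of equal levels and Car1 (1604 to 4.46 CPM) far below it.

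Red cell genes made up the lower end of the comparison. Of 22 erythroid genes 20 were counted, 19 were lower on day 3 and none was higher, with a median log2 ratio of -6.50 (-6.31 after subtracting the median of all genes), where 12.9% of all genes were called lower. Their summed level was 6656 CPM on day 0 and 351 CPM on day 3, 18.9-fold lower. Car1 (chr3:14766216-14808368, minus strand), the carbonic anhydrase of early red cell precursors, stood at 1604 CPM on day 0 and at 4.46 CPM on day 3, 360-fold lower (308 to 423). Ermap, whose promoter is printed above, was 237-fold lower (163 to 357). Klf1, the master activator of globin and red cell membrane genes, was at 142 and 0.926 CPM, 153-fold lower (109 to 223). The same held for Rhd, a Rhesus blood group protein, which was 142-fold lower, and for Cldn13, a claudin of red cell precursors, which was 160-fold lower.

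The receptor for erythropoietin, Epor, had 49.8 CPM on day 0 and 0.505 CPM on day 3. Beta globin was left at a higher level than these: Hbb-bs, whose reads are hard to separate from those of its close copy Hbb-bt, had 563 and 70.4 CPM. Tfrc, the transferrin receptor used by all dividing cells, was the exception in the list, with 155 and 120 CPM and a ratio of 0.770 (0.734 to 0.807). Cpox, an enzyme of heme synthesis from the iron and heme list, was 9.95-fold lower.

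Stem and multipotent progenitor genes were lower too, with a single member opposite. Of 20 genes 11 were counted, 9 were lower and 1 was higher (median -3.02). Kit, the stem cell factor receptor, had 79.4 CPM on day 0 and 14.3 CPM on day 3. Cd34, a surface sialomucin of progenitors, had 69.6 and 7.55 CPM. Sox4, a transcription factor of immature cells, was 26.4-fold lower, and Adgrl4, an adhesion receptor, was 53.8-fold lower. Mecom, a stem cell transcription factor, had 50 UMIs on day 0 and 0 on day 3, which is at least 31.2-fold lower when 3 UMIs are taken as the limit of a count of 0. Ifitm1, an interferon-inducible membrane protein, ran the other way, from 188 to 2503 CPM. It alone took the summed level of the list from 1100 to 2674 CPM, so that the sum and the median of this list have opposite signs.

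Genes of the platelet, lymphoid and basophil lineages were also mostly low on day 3. The megakaryocyte list had 2 counted genes of 12, both lower, and Pf4, the platelet chemokine, went from 432 to 69.9 CPM. The B lineage list had 3 counted genes of 12, all lower, and Dntt, the terminal transferase of lymphoid precursors, had 617 UMIs on day 0 and 3 on day 3, a ratio of 0.0026 (0.000534 to 0.00763). None of the 12 T and NK genes reached a mean of 10 CPM over both days. Trbc2, a T cell receptor constant gene, had 73 UMIs on day 0 and 0 on day 3. Thy1, also of that list, went the other way outside T and NK-like cells. On day 0 it had 176 CPM in the T and NK-like cells and 1.48 CPM in the others. On day 3 it had 64.0 CPM in an unnamed cluster of 99 cells and 8.69 CPM in the others. The basophil and mast cell list had 8 counted genes, 7 lower and 1 higher. Prss34, a basophil protease, had 723 and 65.1 CPM and Mcpt8, another, 375 and 78.3 CPM. The eosinophil list had 2 counted genes of 10, which went opposite ways (median 0.83). Prg2, the major basic protein, was 13.9-fold lower, and Ear2, an eosinophil-associated ribonuclease with close copies, went from 1.15 to 50.7 CPM.

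Antibody genes were among the 10 most lowered genes although few cells carried them. Igkc, the kappa light chain constant gene, had 4281 CPM on day 0 and 20.6 CPM on day 3, 208-fold lower (193 to 224). Jchain, which joins antibody units, was 192-fold lower and Igha, the alpha heavy chain, 114-fold lower. A cluster of 17 cells held 99.4% of the day 0 UMIs of Igkc, 99.3% of those of Jchain and 98.9% of those of Igha. The cluster stayed unnamed, with 7 raised B lineage markers beside 4 of the plasmacytoid dendritic cell list.

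At the other end stood neutrophil granule genes. All 12 genes of the secondary granule list were counted and all 12 were higher on day 3, with a median log2 ratio of 5.45 (5.63 after that subtraction), where 14.1% of all genes were called higher. Their summed level was 737 CPM on day 0 and 22832 CPM on day 3. Ngp (chr9:110419747-110423012, plus strand) went from 113 to 6196 CPM, a ratio of 54.9 (52.6 to 57.3). Ltf, lactoferrin, had 41.3 and 1965 CPM, and Camp, the cathelicidin precursor, had 127 and 4363 CPM. Fcnb, a lectin stored in granules, had 53 UMIs on day 0 and 6140 on day 3, a ratio of 61.9 (47.3 to 82.8). Counts this low on day 0 set the width of that interval.

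Mature neutrophil genes followed the same direction with 8 of 10 counted genes higher and none lower (median 3.62). S100a8 (chr3:90668978-90670035, plus strand), a subunit of calprotectin, went from 786 to 42839 CPM, 54.5 times the day 0 level (53.6 to 55.4). Its partner S100a9 had 767 and 38140 CPM. Ly6g, the surface protein by which mouse neutrophils are sorted, went from 1.99 to 63.4 CPM. Retnlg, a gene of late neutrophils, had 28.0 and 42.5 CPM and was within 2-fold. Lrg1, a neutrophil granule glycoprotein, and Ceacam10, a small carcinoembryonic antigen relative, were 52.5 and 47.7 times higher.

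Primary granule genes, which are made first, mostly stayed within 2-fold. Of 12 genes 3 were higher, 1 was lower and 8 were within 2-fold (median 0.45). Elane, neutrophil elastase, had 1446 and 2465 CPM, and Prtn3, proteinase 3, had 1587 and 2408 CPM. Mpo, myeloperoxidase, was the lower member, with 1145 CPM on day 0 and 382 CPM on day 3. Ms4a3, a tetraspan protein of granulocyte-monocyte progenitors, was the opposite, with 198 and 812 CPM.

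**Figure D2:**
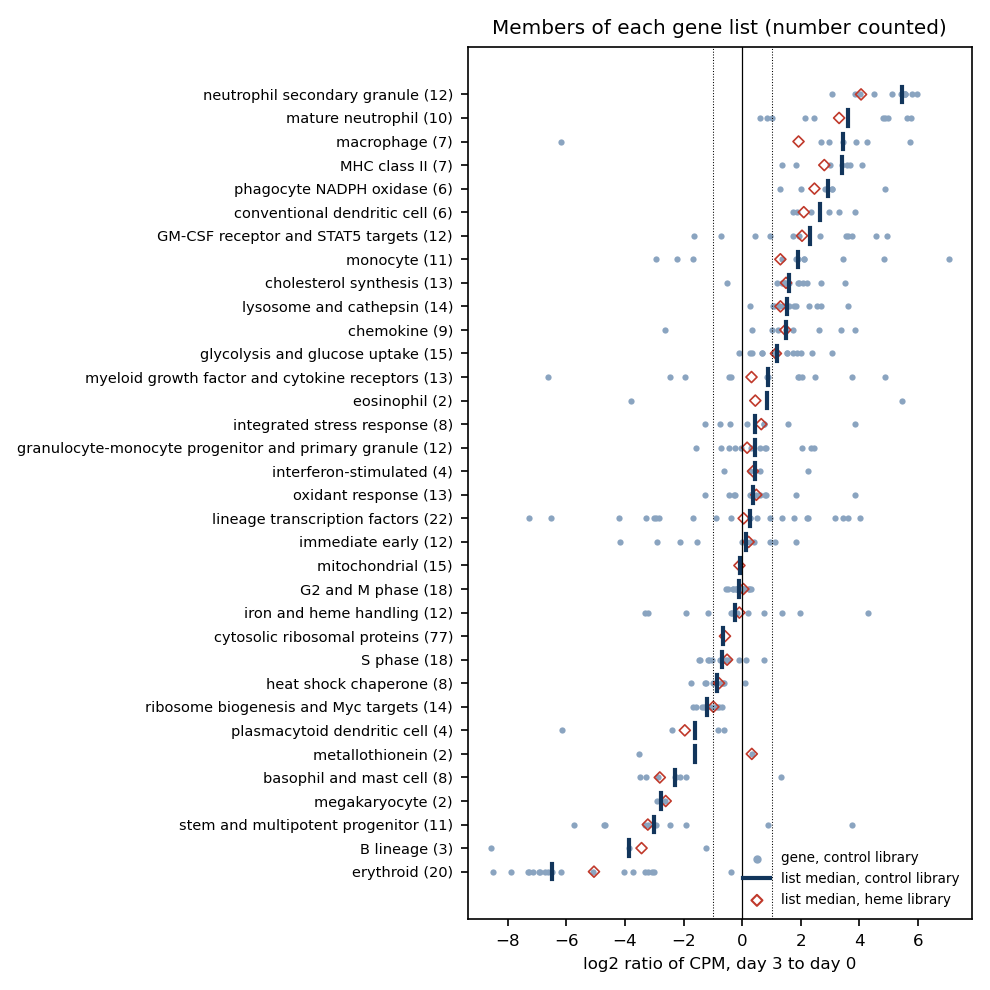
Each row is a gene list, each dot a counted member at its log2 ratio of day 3 to day 0 (x axis), and each bar the list's median. Lines mark equal levels and 2-fold differences, and open diamonds give the list medians of the heme library. The median of all genes was -0.18. The 2 large lists of ribosomal protein and mitochondrial genes show only their medians. The erythroid list lies at the left (median -6.50) and the secondary granule list at the right (5.45).

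Transcripts of the pathway that the added factor uses differed between the days at several steps. Of 14 genes of the GM-CSF receptor and STAT5 list 12 were counted, 8 were higher, 1 was lower and 3 were within 2-fold (median 2.30). Among the receptor genes, Csf2rb (chr15:78325752-78353847, plus strand), the shared beta chain, rose from 27.8 to 378 CPM, a ratio of 13.6 (12.4 to 14.8). Its close copy Csf2rb2, the IL-3 specific beta chain of the mouse, had 5.09 and 62.1 CPM, and the 2 genes may share reads. Csf2ra, the alpha chain, had 27.3 and 106 CPM, a ratio of 3.86 (3.52 to 4.24). All 3 receptor genes were thus higher, the beta chains by more than the alpha chain.

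With the total count, the genes of the kinase and of STAT5 were within 2-fold or lower. Jak2 had 32.7 and 62.5 CPM, a ratio of 1.92 (1.75 to 2.10). That interval reaches past 2-fold, and with TMM or DESeq2 factors the ratio of Jak2 itself was past 2-fold. Stat5b had 28.0 and 17.0 CPM, also within 2-fold, and Stat5a was lower, with 37.9 CPM on day 0 and 12.2 CPM on day 3.

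Among the counted STAT5 target genes, Cish and Socs2 differed by more than the beta chains and the others by less. Cish (chr9:107296026-107302784, plus strand), an inhibitor that binds the activated receptor, went from 4.83 to 148 CPM and so stood 30.6 times higher (24.9 to 38.1). Socs2, another inhibitor of the family, had 2.41 and 56.6 CPM, and Socs1 had 3.67 and 43.2 CPM. Socs3 stood at 1.10 and 16.9 CPM, under the level needed to be counted. The survival kinase Pim1 had 57.3 and 360 CPM and Bcl2l1, which encodes Bcl-xL, 6.09 and 20.0 CPM. Pim2 remained low on both days (2.94 and 2.19 CPM), and Osm, oncostatin M, had 11.0 and 15.0 CPM.

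The difference in Cish was also seen cell by cell at equal depth. With every cell thinned to 3000 UMIs, which left out 179 shallower cells of day 0 and 22 of day 3, Cish was detected in 1.64% of day 0 cells (1.05% to 2.42%) and in 34.4% of day 3 cells (32.4% to 36.5%). The share in the erythroid-like cells of day 0, taken as a background, was 2.52% (0.69% to 6.32%). It was thus not below the share of all day 0 cells, and in the granulocyte-monocyte progenitor-like cells of day 0 it was 0%. Whether erythroid-like cells make Cish themselves was not tested. Csf2rb was detected in 8.998% and 51.5% of cells, with 2.52% in erythroid-like cells, and whether those make it themselves was not tested either. For Kit the shares were 20.2% and 4.21%, with 4.40% in the erythroid-like cells of day 0 and 10.5% (6.96% to 15.0%) in the granulocyte-monocyte progenitor-like cells of day 3. Red cell precursors can make Kit themselves, so for this gene they are no clean background. Cd74 was detected in 25.2% and 41.7%, with 22.6% in erythroid-like cells, so the day 0 share is close to background. Without thinning the shares were 5.35% and 76.0% for Cish, 23.9% and 87.3% for Csf2rb, 44.3% and 16.9% for Kit, and 57.7% and 78.0% for Cd74. Median depths before thinning were 11350 UMIs for day 0 cells and 15875 for day 3 cells that were deep enough, and 17297 for the erythroid-like cells.

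**Figure D3:**
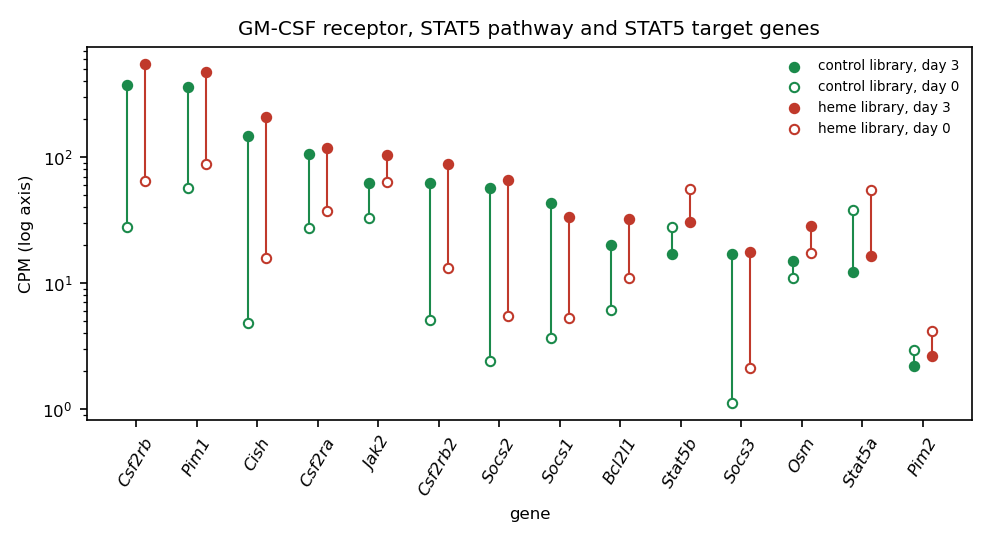
The CPM of the genes of the GM-CSF receptor and STAT5 list is plotted on a log axis for day 0 and day 3 of the control library and of the heme library, which had received no heme by these days. Cish goes from 4.83 to 148 CPM in the control library and from 15.8 to 209 CPM in the heme library, and Stat5a is lower on day 3 in both.

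Lineage transcription factors split evenly. Of 24 genes 22 were counted, with 8 higher, 8 lower and 6 within 2-fold (median 0.27). The lower group held factors of red cell, platelet and stem cell programmes: Gata1 had 99.9 and 1.09 CPM, Gata2 50.1 and 5.11 CPM, Gfi1b 75.5 and 4.10 CPM, Tal1 61.3 and 7.88 CPM, Meis1 26.5 and 3.25 CPM, and Klf1 is given above. Myb, which keeps progenitors dividing, had 277 and 38.9 CPM. Irf8, which directs monocytes and some dendritic cells, was also lower, with 169 CPM on day 0 and 53.2 CPM on day 3.

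The higher group held granulocyte and myeloid factors. Cebpe, needed for secondary granules, went from 18.3 to 299.6 CPM, 16.4 times the day 0 level (14.7 to 18.2). Cebpb, the C/EBP member of emergency granulopoiesis, had 83.4 and 749 CPM and Cebpd 28.0 and 131 CPM. Spi1, which encodes PU.1, had 92.9 and 438 CPM, Gfi1, a repressor in granulocytes, 5.88 and 20.1 CPM, and Id2, an inhibitor of E proteins used by dendritic cells, 27.2 and 329 CPM. Irf4, a factor of dendritic cells and macrophages, had 3.10 and 34.0 CPM. Klf4, a monocyte factor, had 28.8 and 72.9 CPM, but with the study's own cell limits the log2 ratio of Klf4 was -0.0147. Cebpa, Runx1, Ikzf1, Egr1, Nfe2 and Myc were within 2-fold, and Ebf1 was too low to be counted.

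Antigen presentation genes were higher without exception among those counted. All 7 counted genes of the MHC class II list were higher (median 3.40), and their list summed to 365 CPM on day 0 and 3177 CPM on day 3. Cd74, the invariant chain that guides class II molecules, had 130 and 1651 CPM. H2-Aa, a class II alpha chain, had 38.2 and 460 CPM, and Ciita, the activator of class II genes, had 1.42 and 23.9 CPM. H2-Oa, part of a regulator of peptide loading, was below the counting limit with 9.55 and 8.61 CPM. Conventional dendritic cell genes had 6 counted members of 13, all higher (median 2.66). In the heme library 7 were counted, of which 6 were higher and 1 lower. Ccl17, a chemokine of dendritic cells, had 36.3 and 526 CPM, and Batf3, a dendritic cell transcription factor, 3.88 and 38.2 CPM.

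Monocyte genes were mixed and macrophage genes mostly higher. Of 11 counted monocyte genes 8 were higher and 3 lower (median 1.91). Vcan, a large proteoglycan made by monocytes, had 23 UMIs on day 0 and 5738 on day 3, a ratio of 133 (88.8 to 211). Ccr2, the receptor that draws monocytes out of marrow, had 50.6 and 219 CPM, and Ly6c2, a monocyte surface protein, 331 and 1429 CPM. F13a1, coagulation factor XIII, was lower, with 77.9 and 10.1 CPM. Of 7 counted macrophage genes 6 were higher (median 3.44). Mrc1, the mannose receptor, had 1.52 and 80.3 CPM, Adgre1, which encodes F4/80, 1.78 and 33.8 CPM, and Fcgr1, a high affinity antibody receptor of the monocyte list, 0.945 and 27.1 CPM. Apoe, apolipoprotein E, was the lower member of the macrophage list, with 177 and 2.44 CPM, and on day 0 it led an unnamed cluster together with Gata2.

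Effector and metabolic lists were on the higher side, where 14.1% of all genes were called higher. All 6 genes of the phagocyte NADPH oxidase, which makes superoxide, were higher (median 2.93), and Cybb, its catalytic subunit, had 29.97 and 887 CPM. Cholesterol synthesis genes had 12 of 13 counted members higher and none lower (median 1.58). Mvd, a decarboxylase of the mevalonate pathway, had 4.30 and 48.9 CPM, and Fdps, which makes farnesyl diphosphate, 56.6 and 264 CPM. Of 14 counted lysosome genes 13 were higher (median 1.54), led by Ctsc, the protease that activates granule enzymes, with 30.1 and 369 CPM. Of 15 glycolysis and glucose uptake genes 10 were higher (median 1.20), and Slc2a1, the glucose transporter, had 2.78 and 23.0 CPM. Chemokine genes had 7 higher and 1 lower of 9 counted. Lipg, endothelial lipase, showed the largest ratio of any gene with a mean of at least 50 CPM, from 33 UMIs on day 0 to 8574 on day 3, a ratio of 139 (98.8 to 202).

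Growth genes were on the lower side while mitotic genes were level. Over all counted genes 12.9% were lower and the median was -0.18. Of 18 S phase genes 5 were lower and 13 within 2-fold (median -0.69, or -0.50 after subtracting the median of all genes). Mcm7, part of the replication helicase, had 218 and 78.5 CPM. All 18 genes of the G2 and M phase list were within 2-fold (median -0.10). Ribosome biogenesis and Myc target genes had 10 of 14 members lower (median -1.22), among them Npm1, nucleophosmin, with 3484 and 1494 CPM and Ncl, nucleolin, with 1589 and 681 CPM. With TMM factors both came just inside 2-fold, at a log2 ratio of -0.96 for Npm1 and -0.97 for Ncl. Cytosolic ribosomal protein genes had a median of -0.65, and 1 of 77, Rpl14, passed the 2-fold limit. The heat shock list had 4 of 8 genes lower, including Hsp90aa1, an HSP90 chaperone (1969 and 814 CPM).

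Immediate early genes, which cells switch on soon after a stimulus, had 4 lower and 2 higher of 12 counted. Over all genes 12.9% were lower and 14.1% higher. Fosb was 17.9-fold lower, Fos 7.51-fold and Jun 4.32-fold, all 3 being parts of the AP-1 factor. Of the metallothioneins, metal-binding proteins, Mt2 was 11.5-fold lower and Mt1 was within 2-fold (470 and 587 CPM). The integrated stress response list had 2 of 8 higher and 1 lower, the oxidant response list 2 of 13 higher and 1 lower, and the interferon list 1 of 4 higher. In the oxidant and iron lists, Slc7a11, the cystine transporter, had 2.31 and 32.97 CPM and Hmox1, heme oxygenase, 1.84 and 36.0 CPM. The iron and heme list had 3 higher and 4 lower of 12 (median -0.25), while its sum went from 7017 to 13841 CPM with the ferritin genes, whose reads can fall on close copies.

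A day's sum mixes how many cells of each type there were with how much RNA of a gene each cell held, so the cells of each day were clustered separately and clusters were named from marker lists where these were clear. On day 0, 16.8% of cells (15.1% to 18.7%) were stem and multipotent progenitor-like, 9.78% erythroid-like, 7.17% basophil and mast cell-like, 6.56% monocyte-like, 6.08% granulocyte-monocyte progenitor-like (GMP-like), 3.77% megakaryocyte-like, 3.52% T and NK-like and 3.22% neutrophil-like. The 8 clusters that stayed unnamed held 43.1% of the cells. Their leading genes included Car1 and Mt2 in a large cluster, Dntt and Ly6d in another and F13a1 and Mpo in the next. Car1 stood at 3749 CPM in that large cluster of 156 cells and at 1164 CPM in the other day 0 cells. Rhd was at 282 CPM in an unnamed cluster of 99 cells and at 123 CPM in the others. The erythroid-like share thus leaves out some cells rich in red cell transcripts. Unnamed clusters of 90 and 61 cells raised 8 and 10 markers of the GMP list, each beside 6 monocyte markers. Elane stood at 3655 and 5954 CPM in them, so the GMP-like share of day 0 also leaves out cells rich in such transcripts. The monocyte-like cluster raised 6 conventional dendritic cell markers beside 9 monocyte markers, with Cd209a at 130 CPM against 0.492 CPM in the other day 0 cells. It is thus mixed, and dendritic cell markers were not absent from day 0. That cluster also carried red cell transcripts (Hbb-bs at 1526 CPM and Car1 at 382 CPM). The T and NK-like cells were shallow, with a median of 1695 UMIs.

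On day 3, 37.5% of cells (35.4% to 39.6%) were neutrophil-like, 11.9% GMP-like, 7.71% conventional dendritic cell-like, 7.23% monocyte-like and 1.15% basophil and mast cell-like, and 34.5% were in 5 unnamed clusters led by Tgfbi, Fabp4 and Mrc1, Ccl4 and Mmp12, Hbb-bs and Mmp8, and Thy1 and Serpinf1. The dendritic cell-like share joined a cluster of 133 cells with 10 raised markers and one of 28 cells with 3 (Ccr7, Fscn1 and Ccl22). The smaller cluster had a median of 28712.5 UMIs, and Ccl2, Il1b and C1qb were among its leading genes. Whether it held doublets was not tested. The unnamed cluster led by Ccl4 and Mmp12 raised 6 dendritic cell markers beside 8 macrophage markers. No day 3 cluster was erythroid-like, stem-like, megakaryocyte-like or T and NK-like. Several shares depended on the clustering. Erythroid-like cells ranged from 9.78% to 21.0% of day 0, neutrophil-like cells from 0.729% to 3.22% of day 0, dendritic cell-like cells from 1.53% to 7.71% of day 3 and monocyte-like cells from 7.23% to 16.2% of day 3, while neutrophil-like cells of day 3 stayed between 37.1% and 37.5%. The shares are those of the loaded pool and not cell numbers in the dish.

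**Figure D4:**
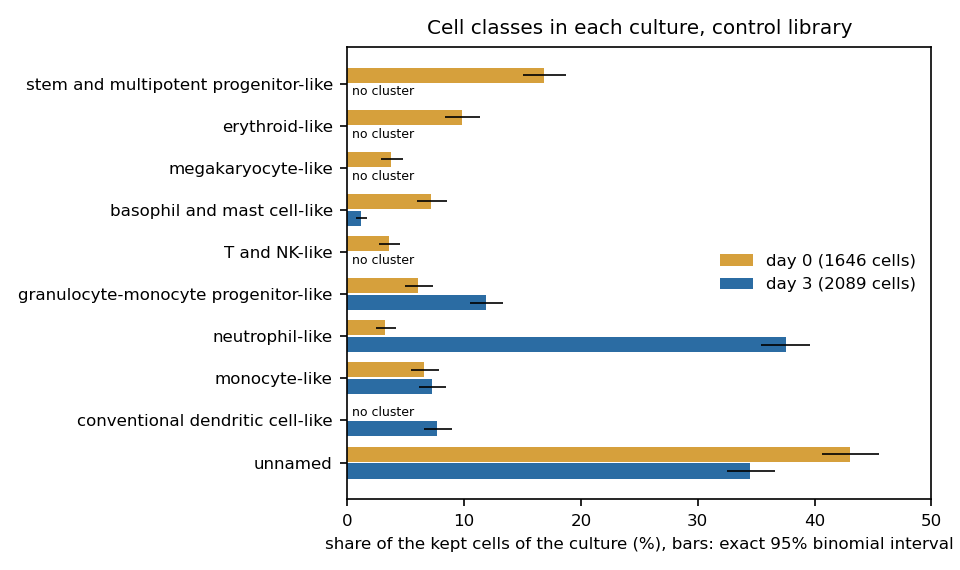
Bars give the share of cells (percent, from 0) of each class on day 0 and day 3 of the control library, with exact 95% binomial intervals. Neutrophil-like cells are 3.22% of day 0 (a cluster that also held monocyte markers) and 37.5% of day 3, and stem-like (16.8%) and erythroid-like cells (9.78%) appear on day 0 only.

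The named classes show where the transcripts lay. S100a8, Ngp, Pf4, Prss34 and Mcpt8 were among the markers used to name classes. Their shares in those classes, here and below, follow in part from the naming. On day 3 the neutrophil-like cells held 85.9% of all S100a8 UMIs at 127079 CPM and 92.9% of all Ngp UMIs at 19878 CPM. The 53 neutrophil-like cells of day 0 had 13770 CPM of S100a8 and held 43.8% of that day's UMIs of the gene. Within that cluster 12 cells carried 97.0% of its S100a8 UMIs and 99.1% of its Ngp UMIs, and 10 monocyte markers were raised beside 17 neutrophil markers, with Ly6c2 detected in 94.3% of the cells. The other clusterings left 12 or 13 neutrophil-like cells on day 0, so the class value of day 0 is that of a mixed cluster. Cd74 stood at 10346 CPM in the dendritic cell-like cells of day 3, which held 57.5% of its UMIs. Vcan and Mrc1 lay mostly in unnamed clusters (72.5% and 86.8% of their day 3 UMIs). Lipg was shared by GMP-like and neutrophil-like cells of day 3 at 534 and 538 CPM and was at 2.53 CPM in monocyte-like cells.

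Pf4 showed how few cells can carry a level. On day 0 the 62 megakaryocyte-like cells held 98.03% of its UMIs at 11709 CPM. On day 3, with no megakaryocyte-like cluster, 92.8% of its UMIs lay in a dendritic cell-like cluster of 133 cells, but 5 of these cells carried 99.7% of them and only 13 had any. With other clusterings Pf4 led a monocyte-like cluster instead, so its day 3 level belongs to a handful of cells that move between classes, and not to the dendritic cell-like cells at large. Cd34 was carried more widely, with 71.7% of its day 3 UMIs in that cluster and a UMI in 66 of the 133 cells. Globin transcripts were spread over other cells than on day 0, since an unnamed cluster of 100 cells led by Hbb-bs and Mmp8 held 30.5% of the day 3 UMIs of Hbb-bs, at 362 CPM, where the erythroid-like cells of day 0 had held 69.1%.

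Basophil and mast cell-like cells could be compared on both days, with 118 cells on day 0 and 24 on day 3. They held 98.4% and 93.5% of the UMIs of Prss34, and its level within them was 32648 CPM on day 0 and 11615 CPM on day 3. Mcpt8 in these cells was at 16528 and 13894 CPM. The level of Mcpt8 within these cells was thus within 2-fold and that of Prss34 was not, where the sums over all cells differed by 4.79-fold and 11.1-fold.

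Some of the day 0 level of myeloid genes lay in cells that should not make them. In the erythroid-like cells of day 0 S100a8 stood at 344 CPM, Ngp at 44.2 CPM and Ccl17 at 28.0 CPM, where all cells together had 786, 113 and 36.3 CPM. On day 3 the 24 basophil and mast cell-like cells held S100a8 at 492 CPM, where all cells had 42839. Cybb was also found in the erythroid-like cells, at 8.14 CPM. Csf2rb stood there at 9.91 CPM, and whether these cells make it themselves was not tested. Ratios of all these genes start from a day 0 level that includes transcripts in such cells. The part of free RNA or of mixed droplets was not tested.

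**Figure D5:**
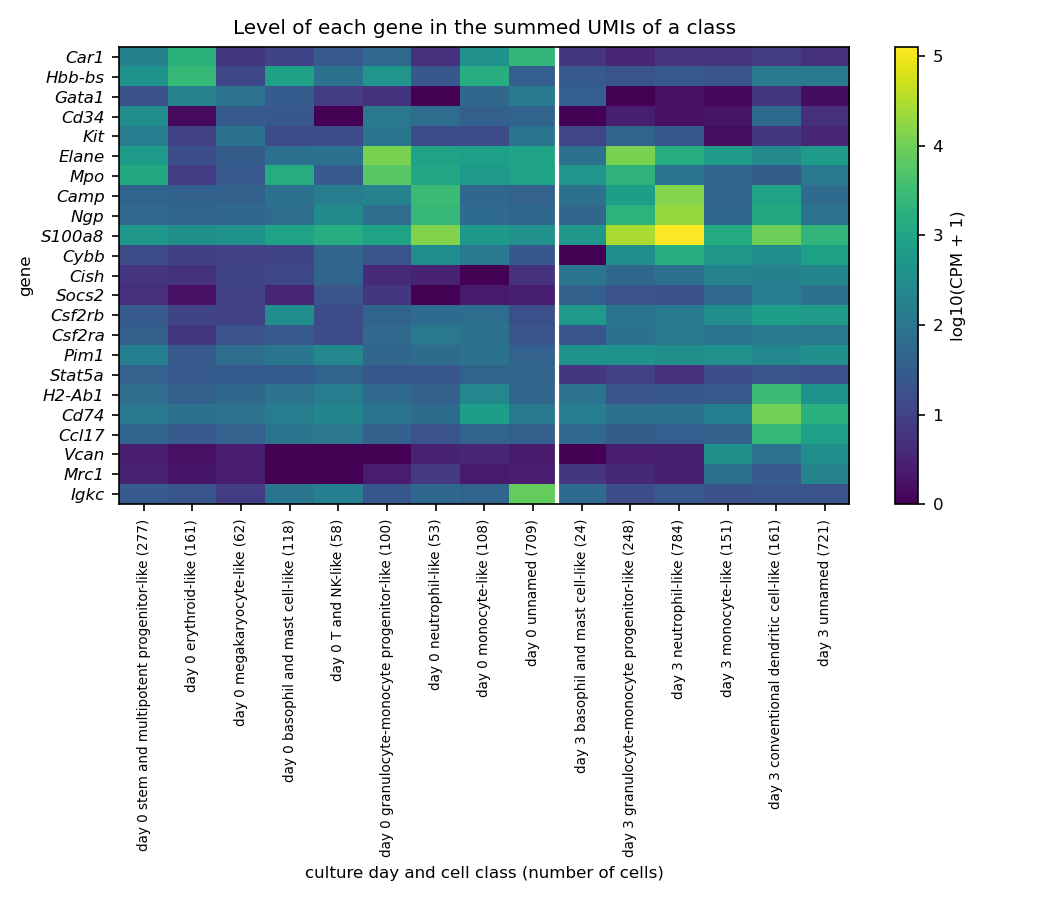
A heat map shows selected genes (rows) within each class of each day (columns), with colour for CPM on a log scale. S100a8 is highest in neutrophil-like cells on both days (13770 CPM in the mixed cluster of day 0 and 127079 CPM on day 3), Cd74 in dendritic cell-like cells of day 3 (10346 CPM), and Cish in every day 3 class lies between 50.3 and 217 CPM.

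Within GMP-like cells, 100 on day 0 in 1 cluster and 248 on day 3 in 2 clusters, part of the comparison stayed and part did not. The day 0 cluster also raised 5 neutrophil markers (Cebpe, Fcnb, Anxa1, Csf3r and G0s2). The unnamed day 0 clusters with markers of the GMP list were not included. Of 6857 genes counted in them 387 were higher and 426 lower on day 3, and 263 of the 1068 higher and 202 of the 973 lower genes of the whole culture kept their call. Elane, a marker used to name the class, was at 11997 CPM on day 0 and 11703 CPM on day 3. Mpo, another marker, was at 6410 and 2057 CPM, a ratio of 0.321 (0.312 to 0.330). Granule genes were higher within the class as well: 8 of 11 counted secondary granule genes were higher, Ngp went from 65.3 to 1962 CPM and S100a8 from 892 to 28894 CPM. Lipg had 1 UMI on day 0 and 2762 on day 3.

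The receptor and STAT5 list kept its direction within GMP-like cells, with 5 of 9 counted genes higher and 1 lower (median 1.16). Cish was at 3.04 and 50.3 CPM, a ratio of 16.5 (6.38 to 61.2), and at 3000 UMIs a cell a UMI of it was found in 0 of 100 cells on day 0 (exact upper limit 3.62%, for cells with a UMI at that depth) and in 13.7% of 248 cells on day 3. Without thinning the numbers were 4 of 100 and 147 of 248 cells. Pim1 was at 47.8 and 413 CPM, Csf2rb at 42.5 and 95.3 CPM and Csf2ra at 53.9 and 81.9 CPM. In the basophil and mast cell-like cells Cish was at 12.0 and 102 CPM, with a UMI in 5 of 118 and 11 of 24 cells.

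Cholesterol genes differed more within GMP-like cells than in the whole culture, with 12 of 13 higher and a median of 2.44. Mvd was at 4.56 and 55.5 CPM and Fdps at 72.1 and 428 CPM. NADPH oxidase genes were higher in 4 of 6 cases. Tfrc, within 2-fold in the whole culture, was at 31.1 and 267 CPM in the class, a ratio of 8.58 (6.29 to 12.0). Antigen presentation and macrophage lists did not keep their direction: the MHC class II median was -0.66 and the macrophage median -0.74 in GMP-like cells, and Cd74 was at 91.9 and 70.7 CPM. Ribosome biogenesis genes, lower in the whole culture, were level in the class (median -0.07), with Npm1 at 2643 and 2691 CPM. S phase genes had a median of 0.22.

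The heme library held the same 2 days before heme was added, with 1827 and 3351 cells, and whether its cultures were the same as those of the control library is not given. Side by side, 937 genes were higher and 1007 lower on day 3 in the heme library. Of the control library's calls 814 higher (76.2%) and 761 lower genes (78.2%) were called the same way there, which were 86.9% and 75.6% of the heme library's own calls. No gene was called in opposite directions. The erythroid median was -5.06 and the secondary granule median 4.06, both nearer to 0 than in the control library. Car1 was 94.7-fold lower (967 and 10.2 CPM), Ngp was 18.3 times higher (309.6 and 5650 CPM) and Cish 13.3 times higher (15.8 and 209 CPM). The Csf2rb level was 64.7 and 550 CPM, and Stat5a was again lower, with 54.3 and 16.3 CPM.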

How the data were processed

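Marrow cells were captured with droplet 3′ chemistry and hashtag antibodies. The deposited matrices hold raw UMI counts, which the authors produced in Cell Ranger (version 4.0.0 in the submitters' processing notes, another version in the matrix header) on GRCm38.p6. The submitters' notes also name Seurat 3.2.3 and Scanpy 1.6.0, and the singlet and day calls are the authors' hashtag demultiplexing. Gene positions are those of GENCODE M21 for 26013 of 26124 identifiers. No columns of other samples were used.

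UMI counts were summed over cells with Python 3.11.15 and pandas 2.3.3. Ratios have exact conditional Poisson intervals and shares exact Clopper-Pearson intervals (95%, scipy 1.17.1). Genes needed a mean of 10 CPM. A count of 0 was given the limit of 3 UMIs. Each day was clustered with Scanpy 1.11.5 and igraph 0.11.9 (2000 variable genes without ribosomal and mitochondrial ones, 15 components, 15 neighbours, Leiden resolution 1). A cluster was named from at least 3 raised markers and a clear lead over other lists, under limits set after the clusters were seen. TMM factors came from edgeR 4.0.16 and size factors from DESeq2 1.42.0, used for scaling only. The steps were tested on simulated data.

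The day contrast, gene lists and motifs were chosen with earlier results of these data known. Named genes were, for each of 35 lists, the 3 members with the widest ratio (at least 20 UMIs), all transcription factors and GM-CSF genes, the 10 highest and 10 lowest genes with a mean of at least 50 CPM, and cluster markers and leading genes. A few more were named after their values were seen, and some items are not reported here.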

Additional observations from a re-analysis of the deposited data

How the results depend on the processing

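No paired analysis was possible because each day was 1 culture and the labels give no replicate numbers, and leaving out a replicate was not possible for the same reason. Depth limits genes under about 10 CPM and the classes of few cells. Of the whole-culture calls, 1068 genes were higher and 973 lower. The lower count became 579 with TMM factors, 575 with DESeq2 size factors and 1752 without ribosomal and mitochondrial genes in the total. Counts of higher and lower genes were 2518 and 3279 with no level filter, 375 and 238 with a mean of at least 50 CPM, 387 and 426 in GMP-like cells only, and 206 and 388 in basophil and mast cell-like cells only. The last alternative, and a day 0 sum without erythroid-like cells (980 and 935), were chosen after seeing the data. That sum left out only the cells named erythroid-like and kept the unnamed cluster led by Car1. The cause of the differences between these counts was not tested.

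Lists with a median of at least 1 numbered 7 in GMP-like cells and 4 in basophil and mast cell-like cells, and those of at most -1 numbered 5 in the latter. Among lists whose whole-culture median was at least 1 in size, these log2 medians changed sign in GMP-like cells: dendritic cell -0.45, monocyte -1.69, macrophage -0.74, MHC class II -0.66, chemokine -0.34 and metallothionein 2.60. Among named genes past 2-fold in the whole culture and with at least 20 UMIs in these cells, those that changed sign there were Ccl17 -0.22, Cd68 -0.74, Cd74 -0.38, Cdc6 1.22, Ctss -0.36, H2-Aa -0.039, Hsp90aa1 0.25, Jchain 0.11, Mt2 3.59, Pf4 2.93 and S100a4 -0.58. Under the same limits the medians that changed sign in basophil and mast cell-like cells were plasmacytoid dendritic cell 0.040, dendritic cell -0.74, secondary granule -0.28, mature neutrophil -0.90, monocyte -1.02, macrophage -1.65, MHC class II -0.80, chemokine -0.74 and metallothionein 2.87, and the genes Ccl17 -0.74, Cebpd -0.85, Gsr -0.075, H2-Aa -0.80, Hsp90aa1 0.58, Hsph1 0.26, Ms4a3 -0.019, Ngp -0.43, Ppan 0.36, Rpl14 0.24, S100a8 -0.90 and S100a9 -1.03. The metallothionein median was 0.33 in the heme library, and the log2 ratio of Klf4 was -0.0147 under the study's own cell limits.

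Shares of day 0 were 21.0%, 11.7% and 17.0% erythroid-like at resolution 0.5, at resolution 2 and with 30 components, and 19.3% stem-like with 30 components. GMP-like cells of day 3 were 17.2% at resolution 0.5 and 17.3% with 30 components. Detection on day 0 and day 3 without thinning was 5.35% and 76.0% for Cish, 23.9% and 87.3% for Csf2rb, 44.3% and 16.9% for Kit, and 57.7% and 78.0% for Cd74. At 2000 UMIs it was 24.0% for Cish on day 3, 7.56% and 42.4% for Csf2rb, 13.7% and 2.69% for Kit, and 19.0% and 35.3% for Cd74.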

Other observations

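The heme library differed from the control library on day 0, before any heme was given. Hmox1 stood at 124 CPM there, against 1.84 CPM in control cells of day 0, while the day 3 levels were 150 and 36.0 CPM. Its ratio of day 3 to day 0 was thus 1.21 with the heme library's cells and 19.6 with those of the control. Retnlg, a late neutrophil gene, was lower on day 0 of the heme library (7.79 CPM) than of the control (28.0 CPM). The 2 libraries were made from separate pools, and the difference between them was not tested. The heme library's pool also held heme-treated cells of later days, in which the study reports high Hmox1. How much of the day 0 level of Hmox1 was free RNA from those cells was not tested.

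Gpnmb, a membrane protein of macrophages, had 307.7 CPM in 1 unnamed day 3 cluster, which held 46.3% of its day 3 UMIs. The same cluster held 47.1% of the day 3 UMIs of Ccl17, at 3627 CPM, and 18.9% of those of Mrc1, at 222 CPM.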
